A study of Mus musculus with 12 samples.

Results

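Cluster 14 is the cluster of nuclei that the study named Layer I Cajal-Retzius cells. It was taken here as every nucleus in the deposited tables of that cluster, 1289 of 50550 nuclei in 25 clusters. The nuclei came from the cortices of 11 C57BL/6J mouse embryos collected at embryonic day 14 according to the labels. Saline embryos (n = 5) came from 2 dams, S1 and S2, injected with saline. EtOH embryos (n = 6) came from 2 dams, E1 and E2, injected with 2.5 g/kg EtOH (25% by volume in saline) once daily for 6 days from E8.5. The S1 and E1 litters were in batch 1 of the labels and S2 and E2 in batch 2, with libraries made in 2 batches according to the methods, and embryos are named below by dam and sample number (S2-4 is sample 4 of dam S2). Sample 3 of dam S2 was not analysed here. Each embryo was 1 single-nucleus RNA-seq library, and the 11 embryos gave 57 to 242 Cluster 14 nuclei each.

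Cajal-Retzius cells are among the earliest neurons of the cortex. They arise at the borders of the cortical sheet, including the cortical hem, migrate under the pia and settle in the marginal zone, the future layer I. They secrete Reelin, the large extracellular protein encoded by Reln. Reelin binds the receptors encoded by Lrp8 and Vldlr on migrating neurons, which leads to phosphorylation of the adaptor Dab1 and guides the layering of the cortical plate. Those born in the hem express the p53-family transcription factor Trp73, and many of them die after birth.

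The median nucleus of Cluster 14 held between 6149 and 12755 UMIs (unique molecular identifiers, each counting 1 captured RNA molecule) across embryos, and the summed counts per embryo ran from 358645 to 2599810 UMIs. Embryos also stood apart in makeup: S2-1, E2-1 and E2-2 had the largest shares of nuclei with little Reln, described below. S2-4 stood apart from the other saline embryos in the share of its Cluster 14 UMIs that fell on genes not annotated as protein coding, 5.74% against 4.08% to 4.67% in the other 4 saline embryos and 5.53% to 5.87% in the 6 EtOH embryos. In the other 24 clusters S2-4 also lay among the EtOH embryos. Between libraries, 18 Cluster 14 nuclei had a barcode that another library also held. No doublet caller was named in the study's methods and none was run here.

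The levels of the defining genes went with the name of the cluster. Reln, the ligand, reached 10477 ± 2753 CPM (UMIs scaled to a sum of 1000000 over the cluster in each embryo, mean ± SD, n = 11 embryos) in Cluster 14. The next cluster was Cluster 24, a group of projection neurons, at 2130 ± 614 CPM (n = 10 embryos with at least 10 nuclei). Cluster 14 held 59.6% of all Reln UMIs of the series in 2.55% of the nuclei. Trp73 was at 542 ± 164 CPM, with the cortical hem radial glia of Cluster 21 next at 35.4 ± 24.1 CPM, and 86.2% of all Trp73 UMIs lay in Cluster 14. Vwc2, which encodes a secreted antagonist of bone morphogenetic proteins, was also highest here (186 ± 53.4 CPM), although Cluster 15, an interneuron cluster, came close at 116 ± 47.6 CPM. The nuclei were clustered on these same genes, so all levels between clusters are given without a test.

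**Figure D1:**
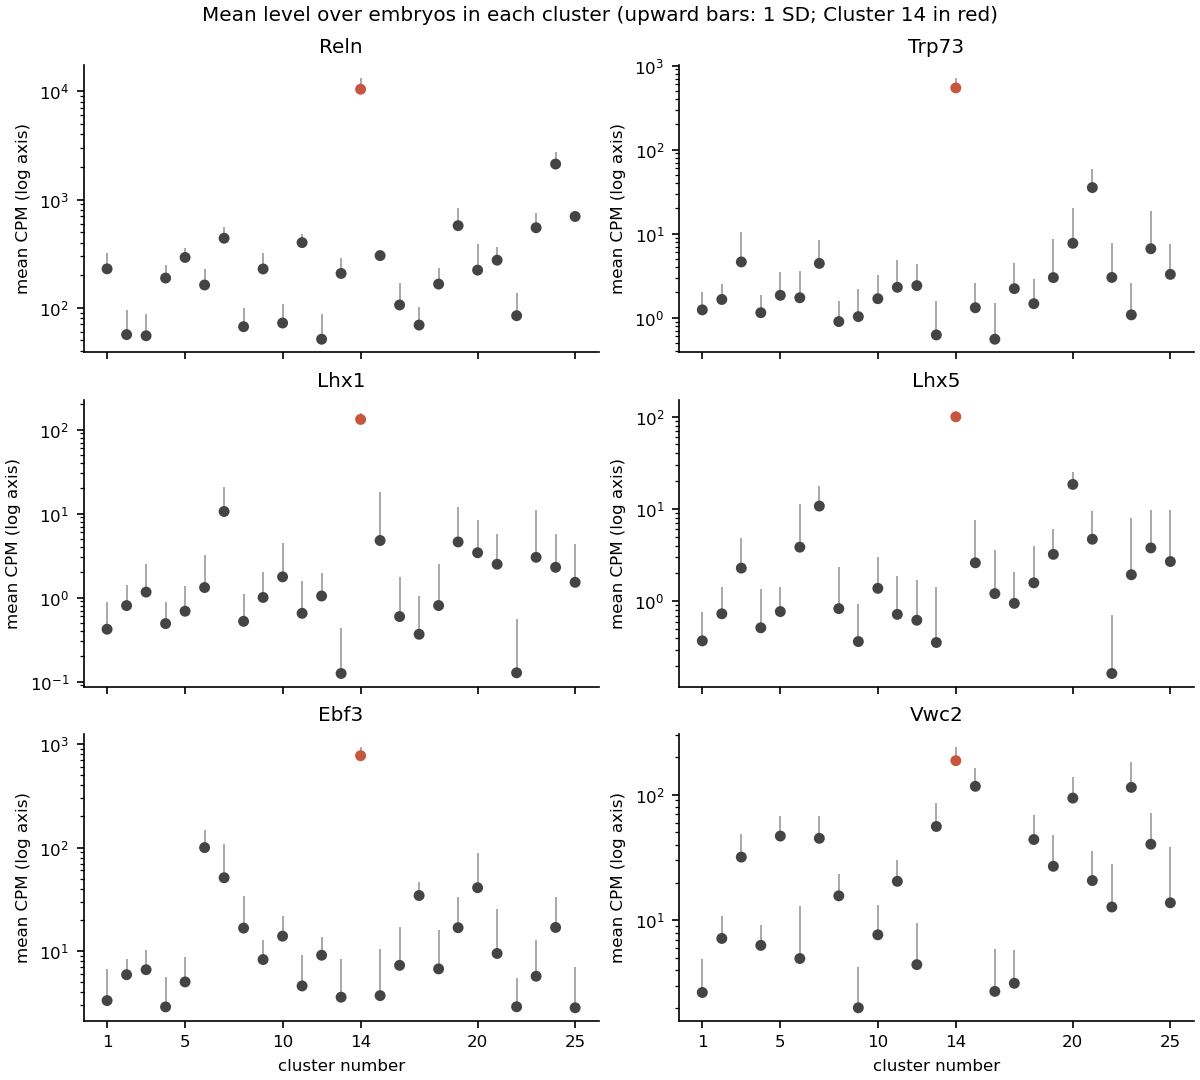
Mean CPM (log axis) of Reln, Trp73, Lhx1, Lhx5, Ebf3 and Vwc2 in each of the 25 clusters, over embryos with at least 10 nuclei in the cluster, with upward bars of 1 SD. Cluster 14, in red, was the highest for all 6 genes, by a ratio over the next cluster that was smallest for Vwc2 and reached 15.3 for Trp73.

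Among genes with at least 50 CPM in Cluster 14, the 15 with the highest ratio to the next cluster were led by transcription factors. Trp73 had a ratio of 15.3. The LIM-homeodomain gene Lhx1 was at 132 ± 27.2 CPM against 10.6 CPM in Cluster 7, its antisense neighbour Lhx1os had a ratio of 12.2, and Lhx5 was at 99.8 ± 10.9 CPM against 18.5 CPM in Cluster 20. Ebf3, an early B-cell factor family member, was at 770 ± 167 CPM against 99.8 CPM in Cluster 6. Nhlh2, a basic helix-loop-helix factor, and Eya2, a transcriptional coactivator with phosphatase activity, had ratios of 4.34 and 3.07. The remaining genes were Reln, Cacna2d2 (a calcium channel auxiliary subunit), Ndst4 (a heparan sulfate sulfotransferase), Slc22a15 (a transporter), 5330417C22Rik and the non-coding genes Gm27199, Gm10475 and Lncpint. Gm27199 lies opposite Lhx5 and Gm10475 lies opposite Reln on the other strand.

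Ebf3 was highest in Cluster 14, and Ebf2 had rank 2, at 428 ± 147 CPM against 490 CPM in Cluster 25. The Reln promoter is therefore shown with the palindromic core of the early B-cell factor motif, CCCNNGGG, in capitals. The window covers 250 bases before to 50 after the annotated start (RefSeq, GRCm38.p6, minus strand, chr5:22344656-22344955).
Reln: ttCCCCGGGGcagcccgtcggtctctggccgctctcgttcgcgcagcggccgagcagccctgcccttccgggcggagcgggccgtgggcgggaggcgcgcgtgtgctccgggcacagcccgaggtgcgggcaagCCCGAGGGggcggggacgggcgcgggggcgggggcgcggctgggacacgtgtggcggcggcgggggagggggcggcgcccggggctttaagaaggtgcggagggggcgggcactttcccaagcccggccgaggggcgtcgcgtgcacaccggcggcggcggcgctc
The letters, which read the same on both strands, occurred 2 times in this window and at least once in 13.7% of the 32851 promoters of the table. Of the 15 leading genes, 9 had a promoter in the table and 4 of these held the letters, against 15.4% of all genes. This is a description of sequence, with no account taken of base composition, and no test of binding.

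Of 21 genes the study lists as markers of the cluster (the first 20 and Vwc2), 15 were highest in Cluster 14 and 20 were among its top 3 clusters. The study picked its markers from these same nuclei, so the high ranks are a description and no independent check. Markers that were also high in the cortical hem radial glia of Cluster 21 included Rspo3, a secreted Wnt agonist (737 ± 216 CPM against 1896 CPM), Cep112, a centrosomal gene (1685 ± 300 CPM against 1373 CPM), Dach1 (3509 ± 723 CPM against 2503 CPM) and Agbl4, an enzyme that shortens polyglutamate tails on tubulin (1040 ± 354 CPM against 1123 CPM). The multiciliation and p73 programme list also summed highest in Cluster 21 (3651 CPM), with Cluster 14 next (3285 CPM). Gmnc, the geminin-family coactivator that starts this programme, had 295 ± 235 CPM in Cluster 14 and 334 CPM in Cluster 21, and Mcidas, its relative, was at 38.7 ± 26.9 CPM against 34.3 CPM. Cdc20b was at 97.6 ± 83.4 CPM against 290 CPM. Foxj1, the factor of motile cilia, was at 4.14 CPM.

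Over all Cluster 14 nuclei, the Reelin receptors and the adaptor Dab1 ranked in the middle of the clusters. Dab1 was at 718 ± 142 CPM (rank 15 of 25 clusters), Lrp8 at 144 ± 16.4 CPM (rank 14) and Vldlr at 32.0 ± 9.48 CPM (rank 16). In nuclei with over 5 Reln UMIs, Dab1 was lower than in those with 0 to 5 (516 against 901 CPM, 11 of 11 embryos). Lrp8 (149 against 170 CPM) and Vldlr (31.3 against 41.3 CPM) were each lower there in 6 of 11 embryos. Of the 26 genes of the Reelin pathway list, 2 were highest in Cluster 14, Reln itself and Src. The cells carried the vesicular glutamate transporter Slc17a6 at 331 ± 45.4 CPM (rank 3), while Slc17a7 (2.81 CPM), Slc32a1 (2.32 CPM) and Gad1 (18.9 CPM) were low. The glutamate receptors Grm8 (913 ± 180 CPM) and Grm2 (12.3 ± 3.86 CPM) were highest here. Among the excitability channels, Cacna2d1 (3934 ± 327 CPM), Kcnh7 (3042 ± 608 CPM), Kcnb2 (2598 ± 333 CPM) and Cacna2d2 (526 ± 123 CPM) were highest of 25 clusters. The chemokine receptor Cxcr4, which holds these cells under the meninges, was at 9.21 ± 3.25 CPM and Cluster 5, migrating interneurons, came next at 7.21 CPM. The guidance genes highest here were Cxcr4, Sema6a (1455 ± 214 CPM), Unc5c (1188 ± 560 CPM) and Unc5b (113 ± 31.2 CPM). Of these, Unc5c was lower in nuclei with over 5 Reln UMIs than in those with 0 to 5 (776 against 1892 CPM, 10 of 11 embryos). Sema6a and Unc5b were higher there in 11 of 11 embryos and Cxcr4 in 9.

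Markers of other cell types were low or absent, with some exceptions. The summed lists for radial glia (149 CPM against 1449 CPM in Cluster 12), projection neurons (1141 CPM against 11029 CPM in Cluster 4) and interneurons (178 CPM against 6211 CPM in Cluster 10) were far under the clusters that they define, and the intermediate progenitor list, with 80.9 to 145 CPM in saline embryos, had 762 CPM in Cluster 6. Meningeal fibroblast, pericyte and endothelial, microglial and oligodendrocyte precursor lists summed to 10.5, 20.9, 23.5 and 2.06 CPM. The red blood cell list summed to 61.5 CPM, near the median cluster (60.9 CPM), and the cycling list to 99.6 CPM against 1863 CPM in Cluster 17. The cortical hem and choroid plexus list (256 CPM, rank 2) came mostly from Rspo2 (146 ± 64.9 CPM) and Lmx1a (79.5 ± 38.7 CPM), while Ttr was at 9.76 CPM and Msx1 at 0.502 CPM. The thalamus list had rank 2 (885 CPM), through Ntng1, Tcf7l2, Lhx2 and Lhx9, and the thalamic gene Gbx2 was at 0.129 CPM.

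The nuclei of the cluster differed in how much Reln they held. To compare nuclei of unequal depth, each was thinned to 2000 UMIs, which left out 1 nucleus. A Reln UMI was then found in 80.1% of 1288 nuclei and a Trp73 UMI in 53.3%. In Cluster 1, callosal projection neurons, the same thinning gave 19.2% for Reln and 0.32% for Trp73, at a median depth of 6608 UMIs per nucleus before thinning against 9621 in Cluster 14, and in Cluster 21 it gave 32.7% and 6.45%. A Reln UMI was also common in Clusters 24 (68.9%) and 25 (63.7%). Reln UMIs per Cluster 14 nucleus had a median of 10, with 256 nuclei at 0 and 269 nuclei above 40. The share with a Trp73 UMI went from 9.38% of nuclei without a Reln UMI to 83.3% of those with over 40.

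Split at 5 Reln UMIs of 2000, with 31 nuclei at 5 and 28 at 6, the nuclei formed 4 classes, which were set after the values had been seen and are described without a test. The largest held 557 nuclei with Trp73 and over 5 Reln UMIs, and had the highest pooled levels of Lhx1 (215 CPM), Ebf3 (1255 CPM), Ebf2 (677 CPM), Cacna2d2 (943 CPM) and Ndnf (158 CPM), a secreted neurotrophic factor. A class of 230 nuclei had over 5 Reln UMIs but no Trp73 UMI, with Ebf3 at 743 CPM and Lhx5 at 109 CPM. All class levels are pooled over embryos. In 130 nuclei, 4 to 38 in each embryo, Trp73 came with 0 to 5 Reln UMIs. These had the highest levels of Gmnc (2662 CPM against 242 CPM in the Trp73 class rich in Reln) and Mcidas (350 CPM against 32.3 CPM). The same held for Cdc20b (977 CPM against 110 CPM), Lmx1a (354 CPM against 109 CPM) and Eomes (131 CPM against 43.1 CPM). Ndnf was low (11.5 CPM), on few UMIs. The last class, 371 nuclei with neither Trp73 nor more than 5 Reln UMIs, had Reln at 461 CPM and carried Tcf7l2 (636 CPM against 16.2 to 42.3 CPM in the other classes), Nxph1 (2815 CPM against 177 to 409 CPM), Meis2 (2288 CPM against 350 to 835 CPM) and Galntl6 (6482 CPM against 593 to 3480 CPM). Ebf3 was at 224 CPM and Lhx1 at 45.8 CPM there, while Slc17a6 (365 CPM) was near the other classes (322 to 431 CPM) and Lhx5 (102 CPM) was near the classes rich in Reln. These 371 nuclei, 28.8% of the thinned nuclei, were by construction poor in Reln and Trp73. Without thinning, a Trp73 UMI was found in 67.8% of Cluster 14 nuclei in saline and 66.4% in EtOH embryos (means over embryos). Thinned, these shares were 54.2% and 54.4%, so some nuclei classed as without Trp73 held a Trp73 UMI at full depth. Their Lhx1, Lhx5 and Ebf3 were above the levels in the next cluster (10.6, 18.5 and 99.8 CPM). Cacna2d2 (102 against 179 CPM in Cluster 18) and Gm10475 (10.8 against 48.3 CPM in Cluster 24) were below. Ntng1 was at 659 CPM, against 149 to 678 CPM in the other classes. The study had removed a separate cluster of thalamic cells with Ntng1 and Tcf7l2 that was biased to a few samples. Any link of that cluster to the 371 nuclei was not tested, and these nuclei are given no other name. Most of the genes named in this paragraph were chosen after their values were seen.

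**Figure D2:**
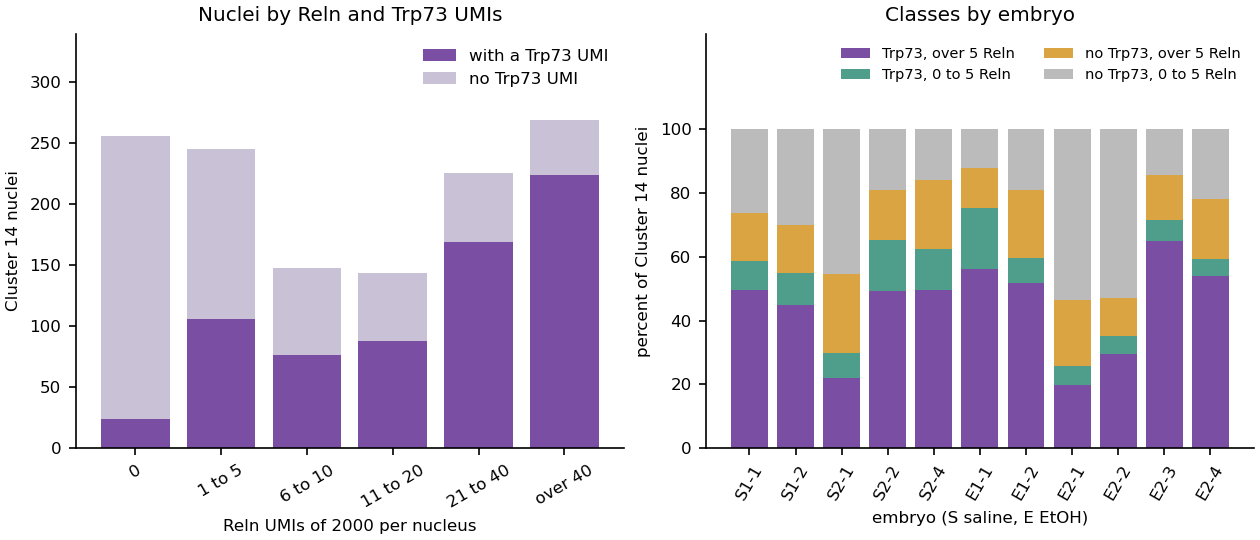
Left, Cluster 14 nuclei by the number of Reln UMIs among 2000 UMIs, with those holding a Trp73 UMI in dark purple. Right, the percent of each embryo's thinned Cluster 14 nuclei in the 4 classes by Trp73 and Reln UMIs. The nuclei with neither (grey) made up 45.3% in S2-1, 53.5% in E2-1 and 52.9% in E2-2, and 12.3% to 30% in the other 8 embryos.

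The same contrast was seen within embryos when nuclei with and without a Trp73 UMI were summed separately. Mean levels over the 11 embryos were higher with Trp73 for Cdc20b (219 against 36.5 CPM, in 11 of 11 embryos), Cacna2d2 (809 against 233 CPM, 11 of 11), Gmnc (538 against 164 CPM, 11 of 11) and Mcidas (75.5 against 6.84 CPM, 10 of 11). They were lower for Il1rapl2 (25.2 against 925 CPM, 11 of 11), Nxph1 (202 against 1955 CPM, 11 of 11) and Tcf7l2 (18.3 against 356 CPM, 10 of 11). Genes of this paragraph were taken from the lists or from the top of the ranking by ratio. They are a description, since both sums come from the same clustered nuclei.

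The question of the study was how prenatal EtOH changed the cell types of the cortex. The share of nuclei in Cluster 14 was 2.06%, 1.98%, 3.01%, 5.45% and 1.82% in the saline embryos S1-1, S1-2, S2-1, S2-2 and S2-4. In the EtOH embryos the lowest was 1.97%, the median 2.30% and the highest 3.36%. The groups overlapped throughout, and S2-2 lay above all others. The means were 2.86% ± 1.52 and 2.45% ± 0.512 (SD), a difference that did not pass a two-sided exact permutation test over embryos (p = 0.675, and p = 0.648 with labels exchanged within batches). Within batch 1, saline averaged 2.02% and EtOH 2.66%, and within batch 2, 3.43% and 2.34%. Leaving out S2-2 turned the direction, to 0.233 percentage points higher after EtOH.

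Depth differed between the groups. The median UMIs per Cluster 14 nucleus were 9171 to 12755 in the saline embryos and 6149 to 9040 in the EtOH embryos. No EtOH embryo reached the lowest saline embryo. The means were 10818 ± 1499 and 8170 ± 1091 (SD; exact permutation test, two-sided, n = 5 and 6, p = 0.0043, the smallest that the 462 possible splits of the embryos allow). The test exchanged embryos as if littermates were independent, although EtOH was given to the dams, 2 per group. The gap was wide in batch 1 (12331 against 6946) and narrower in batch 2 (9809 against 8782). Over all nuclei the medians ran from 6325 to 9051 in saline and from 4072 to 6911 in EtOH embryos, with only S2-4 of the saline embryos inside the EtOH range. Less RNA per nucleus and a shallower library cannot be told apart in these counts, and all levels below are therefore relative to the UMIs of the cluster.

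**Figure D3:**
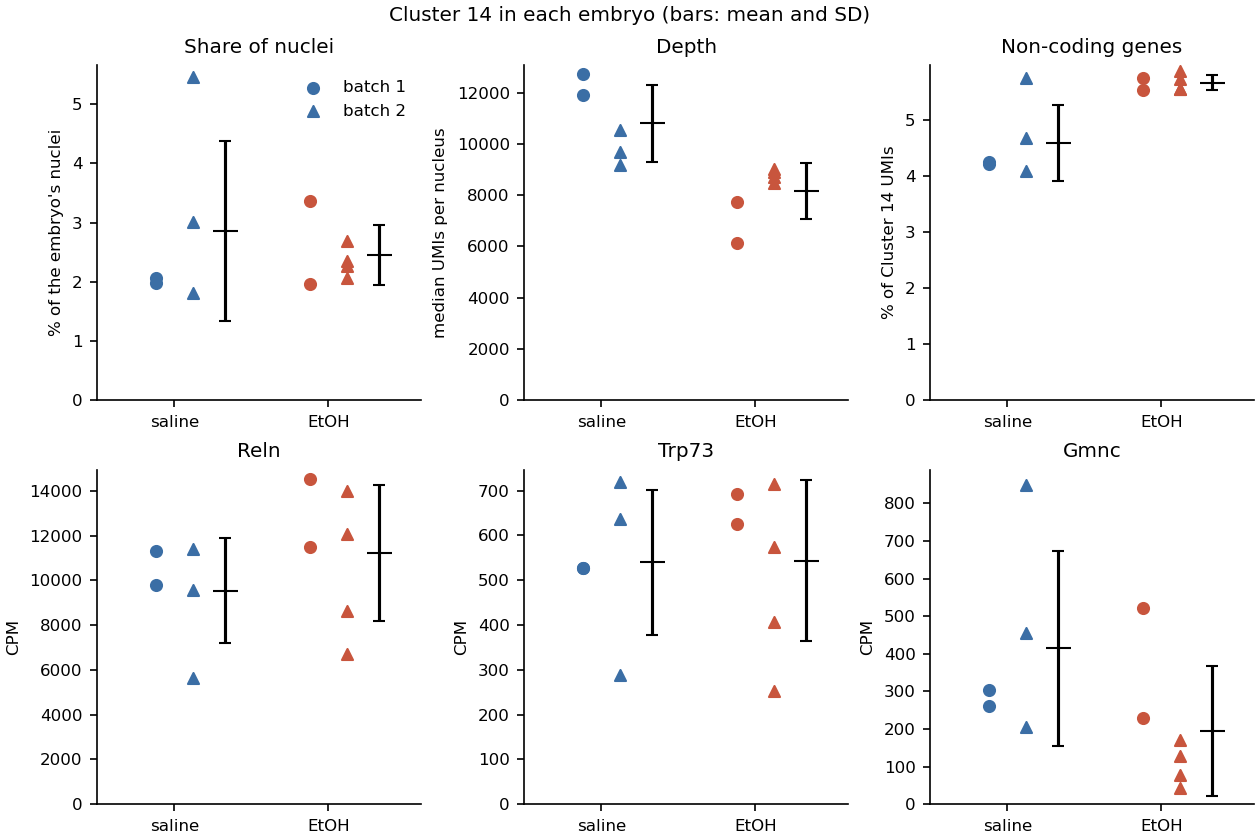
Each point is 1 embryo (blue saline, red EtOH, circles batch 1, triangles batch 2), with the group mean and SD in black. The panels show the share of nuclei in Cluster 14, its median UMIs per nucleus, the percent of its UMIs on genes not annotated as protein coding, and the CPM of Reln, Trp73 and Gmnc. Of these, only the median UMIs did not overlap between the groups, and S2-4 lies with the EtOH embryos in the non-coding share.

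Reln, the marker of the cluster, showed no difference past the test. Its level was 11335, 9797, 5662, 9566 and 11399 CPM in S1-1, S1-2, S2-1, S2-2 and S2-4. The EtOH embryos ran from 6724 CPM in E2-1 over a median of 11802 CPM to 14518 CPM in E1-1. The groups overlapped, and the 3 lowest embryos were the 3 with the most Reln-poor nuclei. The log2 fold change (EtOH over saline) in the edgeR fit of all genes was 0.20 (SE 0.21, adjusted p = 0.724). The share of thinned nuclei with a Reln UMI was 82.0% ± 6.90 in saline and 78.9% ± 15.9 in EtOH embryos (exact permutation test, p = 0.714). Before thinning it was 91.5% ± 4.30 and 84.6% ± 12.4. The direction of this share turned when E2-1 or E2-2 was left out (0.414 and 1.56 percentage points higher after EtOH).

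Trp73 was at 528, 526, 288, 720 and 636 CPM in the saline embryos and at 253 to 714 CPM (median 599 CPM) in the EtOH embryos. The ranges nearly coincided, with group means of 540 ± 162 and 544 ± 180 CPM. Its share of thinned nuclei with a UMI was 54.2% ± 14.2 and 54.4% ± 19.9 (exact permutation test, p = 0.944), and the sign of this small difference changed at a thinning depth of 4000 UMIs and when S2-1 (-5.91 percentage points), E1-1 (-4.01), E1-2 (-0.818), E2-3 (-3.21) or E2-4 (-0.787) was left out. Gmnc reached 849 CPM in S2-2 and 521 CPM in E1-1 and fell to 42.9 CPM in E2-1. Its means were 414 ± 260 and 195 ± 173 CPM, with a log2 fold change of -1.21 (SE 0.60, adjusted p = 0.406) that did not pass. Lhx1 (138 ± 28.2 and 127 ± 28 CPM), Lhx5 (104 ± 9.86 and 96.6 ± 11.6 CPM), Ebf3 (755 ± 138 and 783 ± 200 CPM), Ebf2 (423 ± 207 and 432 ± 95.8 CPM) and Cxcr4 (9.43 ± 4.09 and 9.03 ± 2.77 CPM) also overlapped between saline and EtOH. Of 24 Cajal-Retzius transcription factors 21 were tested and 0 passed in edgeR, and of 20 surface, calcium-binding and secreted markers 18 were tested and 0 passed. Over all 9024 genes tested 0.244% passed, so 0 in lists of this size does not set their genes apart.

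Across all genes, 17 rose after EtOH in Cluster 14 (0.188% of 9024 genes tested) and 5 fell (0.0554%), at an adjusted p under 0.05 in edgeR's quasi-likelihood test and a fold change under 0.8 or above the inverse of it. Together they made up 0.244% of the genes tested. At an unadjusted p under 0.05 there were 730 higher (8.09%) and 532 lower (5.9%). Of the 17 genes that rose, 14 were annotated as antisense or long intergenic non-coding RNAs, while 94.2% of the tested genes with an annotation were protein coding. The largest rise was in Gm29237, an antisense gene within Sptbn1, with a log2 fold change of 1.82 (SE 0.31, adjusted p = 0.035). All 17 genes had 9.78 to 224 CPM on average, so they were of low to moderate level.

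Gm38304, an antisense gene that overlaps Dnm3 on chromosome 1 (161969200-162027106), had the smallest adjusted p. It was at 13.8, 18, 14.5, 15.8 and 29.2 CPM in S1-1, S1-2, S2-1, S2-2 and S2-4, and at 39.0 to 63.5 CPM (median 47.4 CPM) in the EtOH embryos. The groups did not overlap, and S2-4 was the highest saline embryo. The log2 fold change was 1.44 (SE 0.19, adjusted p = 0.00892). C79798, antisense to Pbx3, rose from 15.7 to 33.8 CPM across saline embryos to 36.2 to 94.8 CPM across EtOH embryos (log2 fold change 1.56, SE 0.22, adjusted p = 0.019). Gm26905, a long non-coding RNA opposite Galntl6, was at 132, 148, 150, 128 and 131 CPM in saline and at 173 to 443 CPM (median 294 CPM) in EtOH embryos. Its level also differed between the classes of nuclei, at 32.3 CPM in the Trp73 class rich in Reln and 476 CPM in the nuclei with neither. In nuclei with over 5 Reln UMIs alone its log2 fold change was 1.15, which did not pass (edgeR, adjusted p = 0.250).

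The other non-coding genes that rose were Gm14211, Gm28258, Gm10785, Gm3227, Gm38948, 4930563F08Rik, Macrod2os1, 4833422C13Rik, Gm12158 and Gm48091, with log2 fold changes of 0.83 to 1.59. Gm12158 lies opposite Ebf1 and Macrod2os1 opposite Macrod2. Cell Ranger at its default settings, which the study used, counts reads by strand. The protein-coding genes that rose were Syt5, a synaptotagmin of the vesicle release machinery (14.8 to 24.6 CPM in saline, 29.7 to 45.2 CPM in EtOH, log2 fold change 0.91, SE 0.18), Haghl, a hydrolase-like gene (8.62 to 17.7 CPM and 19.5 to 33.1 CPM, 1.03, SE 0.21), and Gm21798, which overlaps Adcy8 (12.3 to 34.5 CPM and 35.2 to 55.8 CPM, 1.12, SE 0.22). For 16 of the 17 genes the CPM ranges of the groups did not overlap, while across all genes tested 0.898% were apart in this direction. The 17 were called on these same values, so this is a description. Macrod2os1 was the exception, with E1-1 at 19.5 CPM inside the saline range. In 13 of the 17, S2-4 was the highest of the saline embryos. The share of non-coding UMIs, given above, moved with these genes, and its part in their rise was not tested.

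The 5 genes that fell were protein coding. Mki67, the marker of cycling cells, was at 33.9, 30.2, 30.4, 39.6 and 31.5 CPM in S1-1, S1-2, S2-1, S2-2 and S2-4 and at 13.5 to 22 CPM (median 15.5 CPM) in EtOH embryos. The groups did not overlap. The log2 fold change was -0.98 (SE 0.17, adjusted p = 0.035). These levels were low, with 401 Mki67 UMIs in all of Cluster 14 and rank 16 of 25 clusters. Of the 8 genes of the cycling list 4 were tested, and Mki67 alone passed (0.244% of all genes tested passed). Top2a was at 33.3 ± 7.62 CPM in saline and 26.4 ± 17.3 CPM in EtOH embryos, and Cenpf at 23.2 ± 7.16 and 9.50 ± 5.99 CPM (adjusted p = 0.149). The cycling list summed to 104 to 145 CPM in saline and 43.6 to 134 CPM in EtOH embryos, and its part in the difference of Mki67 was not tested.

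Glis3, a Krüppel-like zinc finger factor, was at 11 to 23.2 CPM in saline and 2.31 to 6.73 CPM in EtOH embryos, the largest fall (log2 fold change -1.96, SE 0.34, adjusted p = 0.035), on 178 UMIs in all. Its level in Cluster 14 was 9.86 CPM over all embryos, against 1014 CPM in Cluster 20 and 777 CPM in Cluster 21, both radial glia. Cdh20, a type II cadherin, was at 15.4 to 44.5 CPM and 5.58 to 15 CPM (-1.66, SE 0.33), on 2 to 11 UMIs in each EtOH embryo. Wipf1, a partner of the actin regulator WASP, was at 11.5 to 18.6 CPM and 2.20 to 7.69 CPM (-1.61, SE 0.31), where Clusters 20 and 21 had 104 and 66.3 CPM, and it rested on 1 to 8 UMIs in each EtOH embryo (2 to 7 for Glis3). The part of such nuclei or of their RNA in these falls was not tested. Arid2, a subunit of the PBAF chromatin remodelling complex, was the best counted of the 5, with 4429 UMIs. It was at 340, 317, 310, 383 and 333 CPM in the saline embryos and at 246 to 277 CPM (median 261 CPM) in the EtOH embryos, a small and narrow shift (-0.40, SE 0.08, adjusted p = 0.048). In all 5 the groups did not overlap, against 0.521% of all genes tested in this direction, a description of the values on which they were called.

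**Figure D4:**
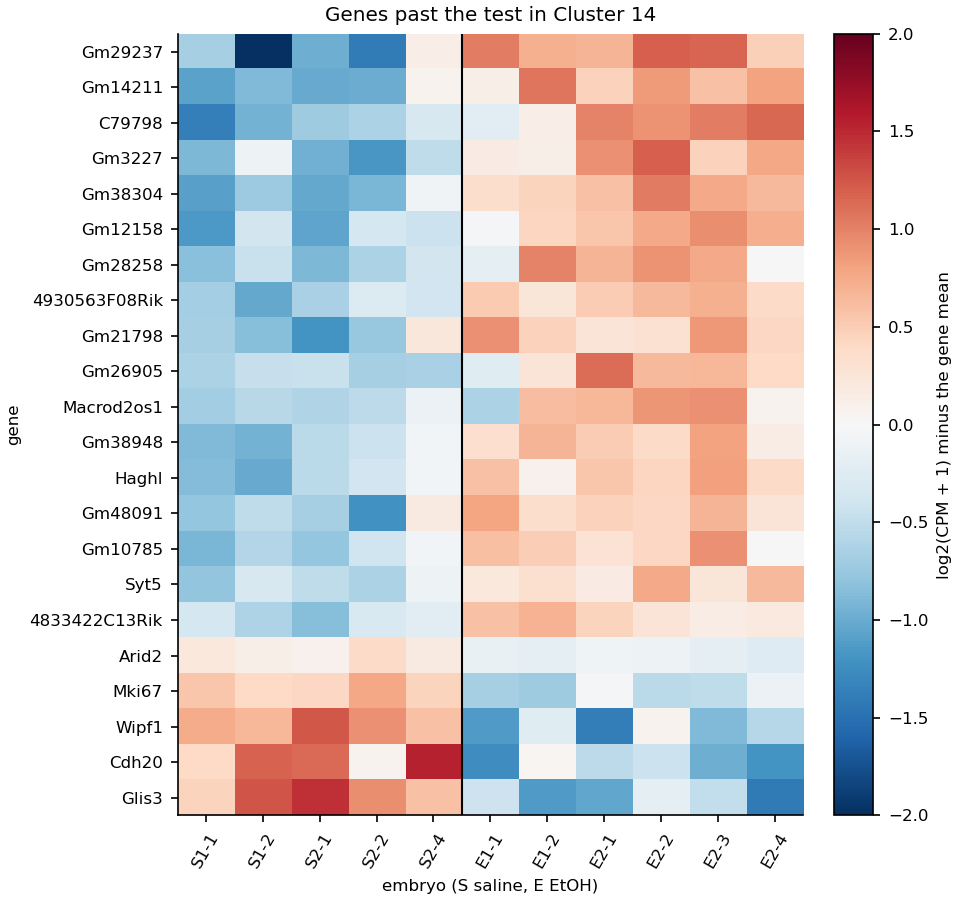
The 22 genes past the test in Cluster 14, 17 higher and 5 lower after EtOH, in each embryo, as log2(CPM + 1) minus the mean of the gene over the 11 embryos (red higher, blue lower). The saline embryos stand left of the line. S2-4 is the palest saline column for most of the genes that rose.

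These counts depended on single embryos. Leaving out S2-4 gave 299 genes higher and 66 lower. Leaving out another embryo gave 0 (S1-1, E2-2), 1 (S2-1, S2-2, E2-3), 2 (E1-2), 4 (S1-2, E2-4), 7 (E2-1) or 8 (E1-1) genes higher and 0 to 4 lower. All of the 22 genes that were tested kept their direction and an unadjusted p under 0.05 in edgeR in each of these fits. They had been picked in the fit of the same embryos, so this is no independent check. With batch as a covariate 2 genes stayed past the test, Gm38304 and C79798, and with nuclei of over 5 Reln UMIs only, Gm38304 stayed and Trps1, a GATA-type zinc finger factor, was lower. In that last fit 13 of the 17 genes and 3 of the 5 were tested. All of these kept their direction and an unadjusted p under 0.05 in edgeR, again in the same embryos. Counts summed per dam, the treated unit with 2 per group, gave 25 genes higher and 9 lower, among them 5 of the 17 and 2 of the 5. The edgeR fits and the permutation tests over embryos took littermates as independent, so their p-values measure the spread between these embryos.

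Across the lists, edgeR's adjusted p called 0 genes beside Mki67, where 0.244% of all genes tested were called. The numbers tested were 23 of 26 in the Reelin pathway, 12 of 15 in the multiciliation and p73 programme, 34 of 36 in migration and guidance, 34 of 37 in glutamate and GABA transmission, 31 of 34 in excitability channels, 27 of 52 in the Wnt and BMP pathway, 14 of 23 in apoptosis and the p53 family, and 11 of 25 in alcohol metabolism and oxidative stress. The median log2 fold change over all genes tested was 0.00079. It was -0.11 for the Cajal-Retzius transcription factors (18 of 21 below 0), 0.12 for the surface, calcium-binding and secreted markers, -0.04 for the Reelin pathway, -0.47 for the multiciliation and p73 programme (10 of 12 below 0), -0.09 for migration and guidance, -0.07 for transmission, -0.04 for the channels, -0.29 for the Wnt and BMP pathway (23 of 27 below 0), -0.01 for apoptosis and 0.04 for alcohol metabolism. At an unadjusted p under 0.05 the Wnt and BMP list had 4 genes lower and 0 higher, migration and guidance 7 lower and 0 higher, and the transcription factors 4 lower and 0 higher, against 5.9% lower and 8.09% higher over all genes. The surface, calcium-binding and secreted markers had 2 higher and 0 lower, transmission 2 higher and 1 lower, the channels 0 and 3, the multiciliation and p73 programme 0 and 2, the Reelin pathway and apoptosis 0 and 1 each, and alcohol metabolism 0 and 0.

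In the Wnt and BMP list the lowest unadjusted p-values belonged to the receptors Bmpr1b (47.0 ± 13.7 CPM in saline and 26 ± 10.5 CPM in EtOH) and Bmpr2 (321 ± 11.5 and 263 ± 29.0 CPM, groups apart), with an adjusted p = 0.107 and 0.108. Rspo3 was at 809 and 677 CPM, Fzd3 at 215 CPM in both groups, and Tcf7l2 at 211 ± 74.0 and 152 ± 168 CPM. In the Reelin pathway, Dab1 was at 671 ± 110 and 757 ± 164 CPM, Lrp8 at 141 ± 23 and 146 ± 10.1 CPM and Vldlr at 37.4 ± 4.31 and 27.5 ± 10.6 CPM. Dcc, the netrin receptor of the guidance list, was at 12885 ± 2113 and 9685 ± 1585 CPM (adjusted p = 0.162). Xiap, an inhibitor of apoptosis, was at 98.2 ± 6.49 and 79.1 ± 7.12 CPM (groups apart, adjusted p = 0.139). Snhg11, on the list of surface, calcium-binding and secreted markers, is a long non-coding RNA and the study's top marker of interneuron Cluster 7. It was at 510 ± 102 and 723 ± 84.4 CPM (groups apart, adjusted p = 0.131). Within Cluster 14 it was lower in nuclei with over 5 Reln UMIs (536 CPM) than with 0 to 5 (785 CPM), in 10 of 11 embryos. Calb2, the calcium buffer calretinin, was at 27.7 ± 6.08 and 48.7 ± 13.8 CPM in saline and EtOH embryos (adjusted p = 0.136).

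The summed marker lists of other cell types overlapped between the groups. The median log2 fold change was -0.93 for the cycling list (4 genes tested, 4 below 0), with median sums of 135 CPM in saline and 64.7 CPM in EtOH embryos. For the interneuron list it was -0.71 (3 tested), with median sums of 245 and 111 CPM. It was -0.51 for the hem and choroid plexus (3 tested), -0.34 for intermediate progenitors (4), -0.30 for the thalamus (4), -0.17 for projection neurons (7), 0.06 for radial glia (3), 0.28 for red blood cells (2) and 0.58 for microglia (1). The interneuron list summed to 155 to 276 CPM in saline and 22.5 to 331 CPM in EtOH embryos, the hem and choroid plexus list to 120 to 469 and 84.7 to 357 CPM, the thalamus list to 544 to 1253 and 556 to 1399 CPM, and the red blood cell list to 22.4 to 169 and 36.6 to 78.1 CPM. Of the nuclei, 29% to 53% in saline and 20.6% to 59.3% in EtOH embryos had 0 to 5 Reln UMIs of 2000. The 2 embryos of the same dam and batch could differ as much as this, with 59.3% in E2-1 and 20.6% in E2-3.

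Whether the EtOH differences were particular to Cluster 14 was asked with a test of the difference itself, on 2 sums per embryo (Cluster 14, and the other 24 clusters). Of 15199 genes tested in edgeR 0 passed at an adjusted p under 0.05 (0.0%), and 669 (4.4%) had an unadjusted p under 0.05. Leaving out E2-1 let 2 genes pass, Gad2 and 4930555F03Rik, each with a log2 fold change that was lower in Cluster 14 than elsewhere (by -1.36 and -1.30). In the sum of the other 24 clusters, 1556 of 18023 genes rose (8.63%) and 637 fell (3.53%) by the same thresholds. Cluster 14 held only 1289 of the 50550 nuclei, so the 2 fits differ in depth and their counts cannot be compared. Side by side, Mki67 had a log2 fold change of -0.98 in Cluster 14 and -0.63 (SE 0.07) elsewhere, Arid2 -0.40 and -0.31, Gm38304 1.44 and 0.85, and Gm26905 1.08 and 0.96. The values lay further apart for Glis3 (-1.96 and -0.68), Cdh20 (-1.66 and -0.31) and Gm28258 (1.31 and 0.26), and edgeR's unadjusted interaction p for them was 0.00036, 0.00081 and 0.0037, none past the adjustment. Both sums come from the same embryos. Gmnc had a log2 fold change of -2.76 (SE 0.55, adjusted p = 0.016) in the other clusters and Trp73 one of -1.02 (SE 0.31, adjusted p = 0.039), where Cluster 14 had -1.21 and -0.03. Cluster 21 was the next highest in Trp73 and the highest in Gmnc. It held 0.864%, 0.933%, 0.748%, 4.64% and 1.247% of the nuclei in S1-1, S1-2, S2-1, S2-2 and S2-4. The EtOH embryos had 0.0789% to 1.55%, a range in which all saline embryos but S2-2 lay. The share of Cluster 21 and the level per nucleus cannot be told apart in these sums.

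**Figure D5:**
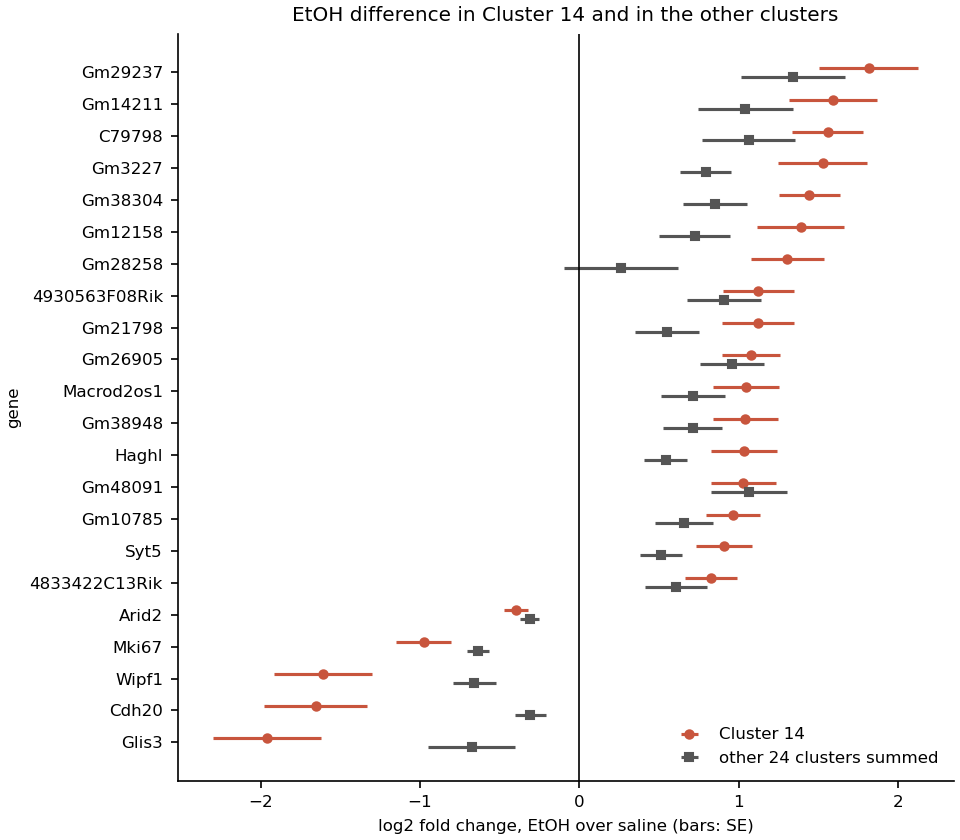
Log2 fold change (EtOH over saline) with its SE for the 22 genes past the test in Cluster 14, in Cluster 14 (red circles) and in the sum of the other 24 clusters of the same embryos (grey squares). All 22 pairs have the same sign, and the points lie furthest apart for Cdh20, Glis3 and Gm28258.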

How the data were processed

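The authors deposited raw UMI counts per gene and nucleus, 1 table for each embryo and cluster, from 10x 3′ v3.1 libraries aligned with Cell Ranger to mm10. Per the study's methods they filtered nuclei by genes, UMIs and mitochondrial, ribosomal and hemoglobin shares, removed 1 saline sample and a set of genes, and clustered in Seurat after SCTransform and Harmony on batch and dam. The tables hold 23513 genes, of which 98.4% matched GENCODE M21 (GRCm38) by symbol. Here the counts of Cluster 14 were summed per embryo (edgeR 4.0.16 quasi-likelihood test, robust, TMM, filterByExpr, Benjamini-Hochberg adjustment, R 4.3.3), with DESeq2 1.42.0 and limma 3.58.1 as alternatives. CPM levels were averaged over embryos with at least 10 nuclei. Shares of nuclei with a UMI were compared after thinning to 2000 UMIs, by two-sided exact permutation tests over embryos (SciPy). The scripts were tested on simulated data. Chi-square per gene between any pair of embryos was at least 1.97, so no library was counted as a duplicate. The members, gene lists and tests were chosen with earlier results of these data known. Named genes were up to 15 called genes per direction by adjusted p, the study's leading markers, the 15 genes with the highest ratio to the next cluster, and up to 4 genes per list by CPM with a set of fixed genes. Genes named beyond this rule were chosen after their values were seen. Cyp2e1 and Neurod1, on 2 of the lists, are not analysed here. Some genes of the lists are not reported here.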

Additional observations from a re-analysis of the deposited data

Results flagged for a closer look

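Dixon's test was applied to 72 sets of values, each a measure or gene of Cluster 14 in the 5 saline or the 6 EtOH embryos, and 7 values lay farther from the rest of their group than its 95% limit, where chance gives about 1 in 20. All 7 were in saline embryos. S2-1 was low in the share of thinned nuclei with a Reln UMI (70.2%, the other 4 at 82.8% to 87.6%) and in that with a Trp73 UMI (29.8%, the others at 55.0% to 65.1%). S2-2 was high in Ebf2 (777 CPM, the others at 243 to 387 CPM). S2-4 was high in 4 of the genes that rose after EtOH, Gm38304 (29.2 CPM), Gm14211 (10.7 CPM), Macrod2os1 (28.4 CPM) and Gm21798 (34.5 CPM), and was in each case the saline embryo nearest to the EtOH embryos. S2-4 also had the lowest median UMIs of the saline embryos (9171 per nucleus) and the highest non-coding share (5.74%). The part of these 2 measures in its levels was not tested.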

How the results depend on the processing

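The test of all genes moved most. The count of genes higher after EtOH was 17 and became 92 with DESeq2, 115 with no filter on low counts, 194 with limma voom and the dam as a random block (estimated correlation -0.049), 2 with batch as a covariate, 0 with each embryo thinned to the smallest total (fewer genes tested), and 0 to 299 with 1 embryo left out. The count of genes lower was 5 and became 24, 132, 30, 0, 0 and 0 to 66 in the same order, and counts summed per dam gave 25 higher and 9 lower, which kept 5 of the 17 and 2 of the 5. Some alternatives were added after seeing the data: only nuclei with over 5 Reln UMIs gave 1 higher and 1 lower, and without S2-1, E2-1 and E2-2 the counts were 0 and 0, with 940 of 9054 genes at an unadjusted p under 0.05 in edgeR. Of the 17 and the 5, 13 and 3 were tested in the former, and 16 and 5 in the latter. All of those tested kept their direction. The replicate block, which takes embryos of the same sample number and batch as pairs, gave 2 higher (Gm38304 and C79798) and 2 lower (Rarb and Sox11, neither among the 5). Same-numbered embryos correlated at 0.33 (S2-1 and E2-1) and at -0.12 to -0.0078 (the other pairs) in their deviations from the group means. S2-1 and E2-1 were both among the embryos with the most Reln-poor nuclei, and what else they share was not examined. The cause of the changes in the counts was not tested. Of the genes run under the alternatives (the 22 past the test, Gmnc, Lhx1, Lhx5, Vldlr and Reln), 1 turned in direction, Lhx5 (log2 fold change 0.034 in nuclei with over 5 Reln UMIs). The share of nuclei in Cluster 14 changed sign with group medians (0.249 percentage points) and ran from -0.676 to 0.233 with 1 embryo left out. The share with a Reln UMI ran from -5.99 to 1.56 percentage points. The difference in the share with a Trp73 UMI (0.195 percentage points) was -1.44 without thinning, -0.058 thinned to 4000 UMIs, -2.80 at a minimum of 2 UMIs and -5.91 to 5.96 with 1 embryo left out. None of these 3 shares passed its test under any alternative run. The difference in median UMIs kept its direction and its side of the threshold in all of them (-3060 to -2164 with 1 embryo left out), and the log2 fold change of Reln stayed above 0 and not past the test (0.07 to 0.31 with 1 embryo left out). The interaction test gave 0 genes in all alternatives but 1, with 0 to 2 when 1 embryo was left out. Depth limits the low genes: the smallest Cluster 14 sum held 358645 UMIs.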
